A study of Mus musculus with 8 samples.

Results

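The genes described here are 30 genes of macrophages and monocytes, chosen by symbol, and the measurements are their RNA levels in 4 populations of dendritic cells sorted from mouse thymus. They were chosen with earlier results of these data known. Shares of these genes set beside shares of all genes are therefore descriptions and not independent support. Probes on the array were assigned to a gene where their accession matched that gene's symbol. Of the 30 genes, 28 had a probe and all 28 entered the tests, out of 24152 genes or accessions tested in all. Cd68 and Ly6c2 had no probe matched by accession and are not analysed here.

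Dendritic cells present antigen to T cells, and in the thymus they take part in removing self-reactive T cells and in forming regulatory T cells. The 4 groups were Sirpa-positive immature, Sirpa-positive mature, Sirpa-negative immature and Sirpa-negative mature cells, each with 2 arrays, and total RNA was labelled with Cy3. Sirpa is an inhibitory surface receptor of myeloid cells. The labels name thymus as the tissue of all groups and no strain, age, genotype, agent or further sort marker. Nothing in them ties the 2 arrays of a group to different mice or different sorts. The p-values therefore reflect the spread between these arrays only, and that spread may be technical.

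Macrophages engulf dying cells and recycle their lipid, haem and iron, and monocytes are their circulating relatives. The CSF1 receptor supports their survival, the GM-CSF receptor chains transmit a cytokine shared with dendritic cells, and scavenger receptors bind modified lipoproteins, glycans and cell debris. Trem2 is a lipid-sensing receptor that signals through the adaptor Tyrobp. The thymus holds resident macrophages that clear the many thymocytes dying there, and dendritic cells and macrophages share part of their gene expression.

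A level is given as the log2 of the processed signal relative to its array, on which 0 is that array's 75th percentile. Levels are compared within a gene only, since probes differ in brightness. The 75th percentile lay between 147 and 313 intensity units, the share of spots well above background was 52.9% to 65.5%, and no array (0) had a saturated spot. Over all kept probes, arrays of the same group correlated at r = 0.979 to 0.987 and arrays of different groups at 0.908 to 0.963, across genes, which are not independent replicates. The arrays lay on 1 slide in 2 rows, and each row held 1 array of each group. Sirpa itself had a mean level of 4.61 and 4.11 in immature and mature Sirpa-positive cells, against -2.22 and -0.71 in the Sirpa-negative cells. Ccr7, the chemokine receptor of mature dendritic cells, rose by 6.16 ± 0.60 (SE) in Sirpa-positive and 5.69 ± 0.60 in Sirpa-negative cells with maturation (limma adjusted p = 0.0026 and 0.0016). All 10 conventional dendritic cell markers were well above background on all 8 arrays.

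Other cell types were also checked by their markers. The summed level of the 18 thymocyte markers measured, with each array's 75th percentile set to 100, was 4424 to 5040 in immature and 6379 to 6678 in mature Sirpa-positive cells, and 3151 to 4467 and 7734 to 10080 in the Sirpa-negative cells. Between 15 and 18 of these 18 markers were well above background on each array. Of the thymocyte markers, 6 rose with maturation in Sirpa-positive cells and 13 in Sirpa-negative cells, beside 4.35% and 9.22% of all genes tested. Marker sums of 12 thymic epithelium and fibroblast genes were 936 to 1414 in immature and 531 to 662 in mature Sirpa-positive cells, and those of 11 neutrophil genes were 335 to 369 and 248 to 251. In the same cells the sum of 10 B cell markers was 872 to 894 and 1164 to 1296, that of 8 natural killer cell markers 477 to 524 and 340 to 390, and that of 6 erythroid markers 146 to 169 and 50.7 to 53.3. Of the erythroid markers 1 to 3 were well above background on each Sirpa-positive array. All 10 plasmacytoid dendritic cell markers were well above background on all 8 arrays. Their sum was 12590 to 12989 in immature and 13382 to 16598 in mature Sirpa-positive cells, and 11422 to 13482 and 12345 to 13105 in Sirpa-negative cells. Among immature cells 4 of these 10 were higher and 1 lower in the Sirpa-positive subset, beside 7.23% and 4.38% of all genes tested. In Sirpa-positive cells these sums moved with maturation, whereas the plasmacytoid sums of immature and mature Sirpa-negative cells overlapped. The part of all these marker sums in the results below was not tested. Fewer cells of a type and less RNA per cell cannot be told apart in such bulk samples.

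The question for Sirpa-positive cells was which of these genes they kept and which they lost when they matured. Of the 28 genes, 4 fell, with an adjusted p under 0.05 from limma, and none (0) rose. At an unadjusted p under 0.05, 9 were lower and 1 was higher, while 20.2% of all genes reached it in either direction. The share that fell was 14.3%. Of all genes tested 6.89% passed, of which 2.53% fell and 4.35% rose (as shares of all genes). The 4 were Rnase2a, Marco, Maf and Mrc1. The median log2 difference between mature and immature cells was -0.50 over the 28 genes and 0.03 over all genes, and it was negative for 25 of the 28 and for 47.3% of all genes. For 20 of the 28 the arrays of the groups did not overlap (71.4%, beside 51.1% of all genes). All 28 were well above background on both immature Sirpa-positive arrays, and 27 on both mature ones. Cd163 was above background on 1 of the mature arrays.

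**Figure D1:**
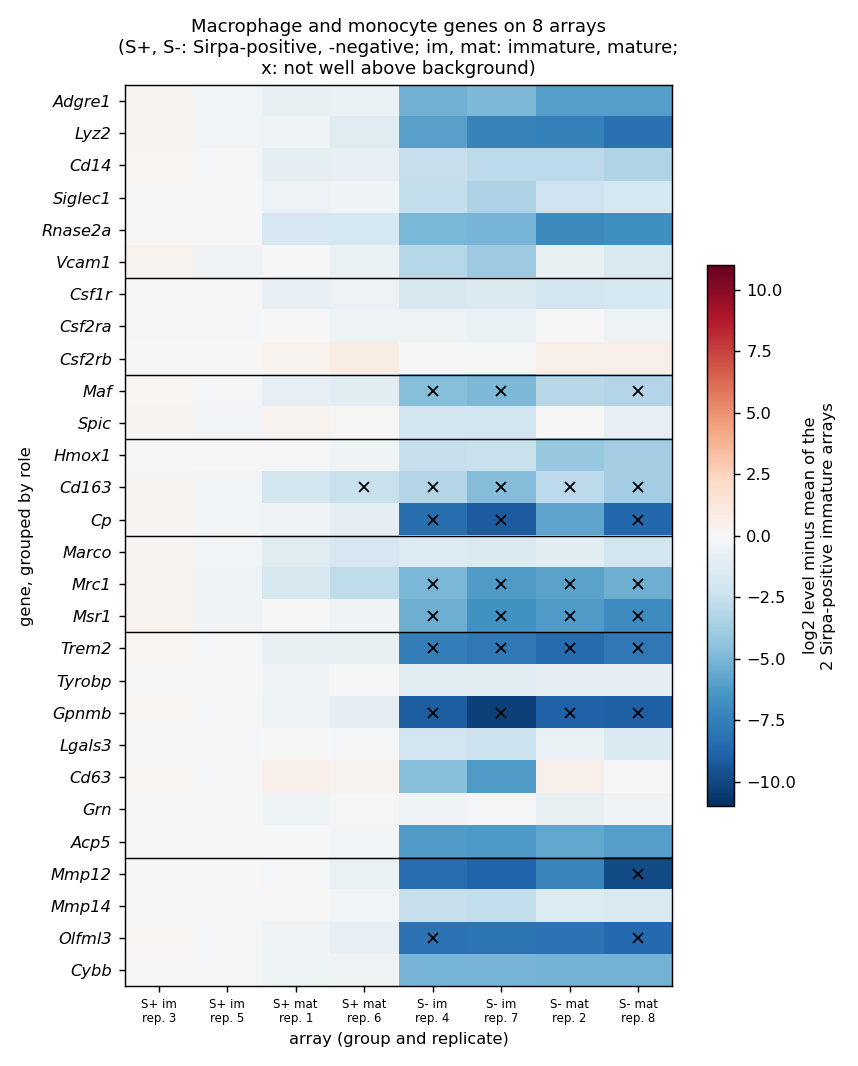
Log2 level of each of the 28 genes on each array minus the mean of the 2 Sirpa-positive immature arrays of that gene (colour), with genes in rows grouped by role and arrays in columns. The Sirpa-positive columns on the left stay near 0 for most genes, whereas the Sirpa-negative columns are blue for most genes, and crosses mark values not well above background.

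Rnase2a, Marco and Mrc1 have a window in the RefSeq promoter table, and these sequences are shown because their RNA fell together in Sirpa-positive cells. Each is the 250 bases before the annotated start (RefSeq, GRCm38.p6), written 5′ to 3′ along the gene's strand. Capitals mark GAGGAA, the core letters bound by the myeloid factor PU.1, and TGCTGA, a half-site of the Maf family, on either strand (TTCCTC and TCAGCA). No overlap between motifs was removed. Rnase2a lies at chr14:51256113-51256362 (minus strand), Marco at chr1:120505025-120505274 (minus strand) and Mrc1 at chr2:14229164-14229413 (plus strand).
Rnase2a: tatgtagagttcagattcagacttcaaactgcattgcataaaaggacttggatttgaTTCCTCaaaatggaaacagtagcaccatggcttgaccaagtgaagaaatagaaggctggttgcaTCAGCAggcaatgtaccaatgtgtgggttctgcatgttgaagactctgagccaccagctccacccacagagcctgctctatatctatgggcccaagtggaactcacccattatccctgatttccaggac
Marco: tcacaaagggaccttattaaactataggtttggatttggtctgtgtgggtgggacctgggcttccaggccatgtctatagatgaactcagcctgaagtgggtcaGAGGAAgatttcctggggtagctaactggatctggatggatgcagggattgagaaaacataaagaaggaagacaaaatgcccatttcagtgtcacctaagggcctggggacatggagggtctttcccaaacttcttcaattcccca
Mrc1: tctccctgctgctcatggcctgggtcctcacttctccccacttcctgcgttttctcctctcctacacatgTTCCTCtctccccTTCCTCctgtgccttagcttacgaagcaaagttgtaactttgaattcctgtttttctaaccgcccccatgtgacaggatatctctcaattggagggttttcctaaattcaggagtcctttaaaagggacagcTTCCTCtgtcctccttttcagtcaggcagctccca
In the Rnase2a window there was 1 match of each motif, at 193 to 188 and 129 to 124 bases before the start. Marco had 1 GAGGAA match, 146 to 141 bases before the start, and Mrc1 had 3, the nearest at 35 to 30. The 18 of the 28 genes with an entry had 22 windows. GAGGAA was in 8 of these 22 (36.4%), beside 23.3% of 32851 promoter windows of the same length, and TGCTGA was in 4 (18.2%), beside 16.1%. A match is a description of letters and does not show a bound site.

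Rnase2a belongs to the eosinophil-associated ribonuclease family. Its level was 4.92 and 5.04 on the immature Sirpa-positive arrays and 3.12 and 3.04 on the mature ones, and the groups did not overlap. The difference was -1.90 ± 0.20 (SE; adjusted p = 0.0035), a 3.72-fold fall. It was -1.92 in the first slide row and -1.87 in the other, and with the slide row as a block the adjusted p was 0.0111. This fall passed the threshold in all 19 alternatives. The gene has close relatives, and whether the probe also binds their RNA was not tested.

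Marco and Mrc1 are scavenger receptors, Mrc1 for mannose-bearing glycans. Marco lay at -0.52 and -1.17 on the immature and -2.16 and -2.70 on the mature Sirpa-positive arrays, with no overlap. The difference was -1.58 ± 0.34 (adjusted p = 0.039), a 2.99-fold fall, with -0.99 in the first slide row and -2.17 in the other. Mrc1 was at 0.19 and -0.58 in immature cells and at -1.96 and -2.95 in mature cells. Its difference was -2.26 ± 0.51 (adjusted p = 0.045), a 4.79-fold fall, with -1.37 and -3.15 in the slide rows. The size of both falls depended on the processing. With normexp background correction the differences were -0.83 for Marco and -1.25 for Mrc1. With the authors' deposited values that of Mrc1 was -1.56. Msr1, also a scavenger receptor, was at 1.80 and 1.11 in immature and 1.38 and 1.03 in mature cells, groups that overlapped. Its difference was -0.24 ± 0.46 (adjusted p = 0.83).

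Maf, a transcription factor of macrophages and some T cells, was at -0.47 and -0.87 on the immature and -1.61 and -1.84 on the mature Sirpa-positive arrays. Its difference was -1.06 ± 0.23 (adjusted p = 0.040), a 2.08-fold fall, with -0.74 and -1.38 in the slide rows. Spic, a transcription factor required for splenic red pulp macrophages, was at 0.35 and -0.30 before and 0.41 and 0.15 after maturation, and these arrays overlapped. The calls of Marco, Maf and Mrc1 depended on every Sirpa-positive array. With any of those 4 arrays left out, each of these genes missed the threshold, with adjusted p from 0.0608 to 0.238. Maf also missed it without any of the 4 Sirpa-negative arrays (0.0550 to 0.0581), Marco without either Sirpa-negative immature array (0.0587), and Mrc1 without either Sirpa-negative mature array (0.0644). With the slide row as a block, Marco, Maf and Mrc1 had adjusted p = 0.0690, 0.0813 and 0.0615.

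**Figure D2:**
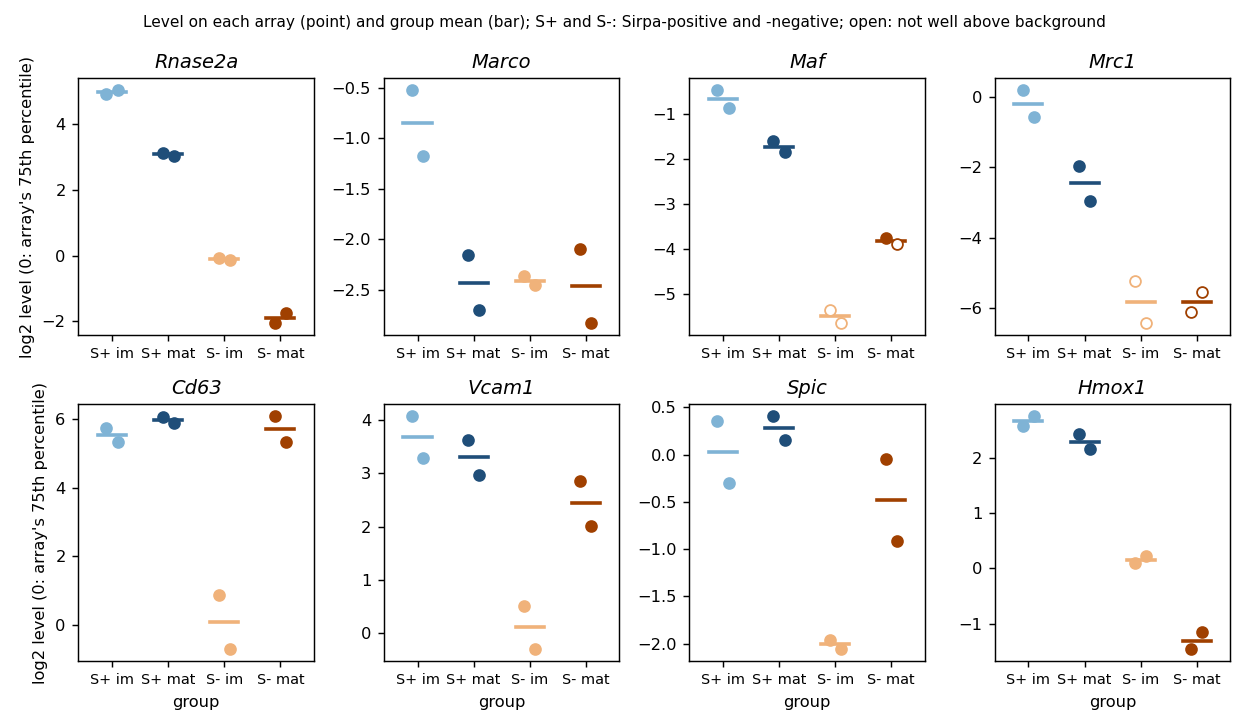
Log2 level on each array (points) and group mean (bars) for 8 genes, with 0 the array's 75th percentile and open points not well above background. Rnase2a, Marco, Maf and Mrc1 are lower in mature than in immature Sirpa-positive cells, while Cd63, Vcam1, Spic and Hmox1 differ with maturation in Sirpa-negative cells.

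Genes near the threshold were Cd163, the receptor for haemoglobin bound to haptoglobin, Cd14, the co-receptor for bacterial lipopolysaccharide, and Csf1r, the CSF1 receptor. Cd163 stood at -1.53 and -2.13 in immature and -3.86 and -4.32 in mature Sirpa-positive cells, a difference of -2.26 ± 0.55 (adjusted p = 0.058). The array at -4.32 was not well above background, and the difference lay between -2.55 and -0.78 in the alternatives. Cd163 was tested only because of its immature Sirpa-positive arrays, a filter that favours a fall. Cd14 stood at 0.50 and 0.13 in immature and -0.73 and -0.59 in mature cells, a difference of -0.97 ± 0.25 (adjusted p = 0.067). Csf1r stood at 5.26 and 5.19 and then at 4.28 and 4.57, a difference of -0.80 ± 0.21 (adjusted p = 0.068). In none of these did the groups overlap. Cd163 passed the threshold in 8 of 18 alternatives, Cd14 in 5 of 19 and Csf1r in 6 of 19. Without either Sirpa-negative immature array Cd163 had adjusted p = 0.0240.

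Among genes that did not pass, the 95% interval separates close estimates from open ones. For 8 genes it lay within a 2-fold change in either direction. They were Acp5, the lysosomal phosphatase of osteoclasts and macrophages, the GM-CSF receptor chain Csf2ra, the oxidase subunit Cybb, progranulin (Grn), haem oxygenase (Hmox1), galectin-3 (Lgals3), the membrane metalloprotease Mmp14 and the adaptor Tyrobp. Tyrobp was at 7.66 and 7.63 and then at 7.26 and 7.68, a difference of -0.17 with an interval from -0.67 to 0.33. Cybb was at 6.27 and 6.10 and then at 5.72 and 5.82, a difference of -0.41 with an interval from -0.85 to 0.03. Acp5 was at 6.10 and 5.82 and then at 5.83 and 5.64, a difference of -0.23 with an interval from -0.73 to 0.28. For 3 more genes a 2-fold fall lay outside the interval, but not a 2-fold rise. These were Cd63, a tetraspanin of late endosomes and lysosomes, the transcription factor Spic, and Csf2rb, the chain shared by the receptors for GM-CSF, IL-3 and IL-5. Csf2rb was at 4.93 and 5.08 and then at 5.42 and 5.79, a difference of 0.60 ± 0.21 (adjusted p = 0.16).

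For the remaining 13 genes the interval included a 2-fold fall, so neither a fall of that size nor its absence was shown. They were Adgre1, Cd14, Cd163, Cp, Csf1r, Gpnmb, Lyz2, Mmp12, Msr1, Olfml3, Siglec1, Trem2 and Vcam1. Adgre1, a surface receptor widely used to mark macrophages, was at 5.28 and 4.76 in immature and 4.24 and 4.33 in mature Sirpa-positive cells, with a difference of -0.73 and an interval from -1.29 to -0.17 (adjusted p = 0.13). Trem2 was at 2.60 and 2.20 and then at 1.61 and 1.56, with a difference of -0.81 and an interval from -1.47 to -0.15 (adjusted p = 0.15). Gpnmb, a lysosomal glycoprotein of lipid-laden macrophages, was at 3.79 and 3.38 and then at 3.06 and 2.56, a difference of -0.77 with an interval from -1.74 to 0.20. Lyz2, a lysozyme gene, was at 5.53 and 4.98 and then at 4.90 and 3.94, a difference of -0.84 with an interval from -2.08 to 0.41. Siglec1, a sialic acid receptor of macrophages, was at 0.47 and 0.41 and then at -0.19 and -0.05, a difference of -0.56. The widest intervals were those of Cp, ceruloplasmin, from -2.67 to 1.22, and Mmp12, macrophage elastase, from -2.13 to 1.24.

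**Figure D3:**
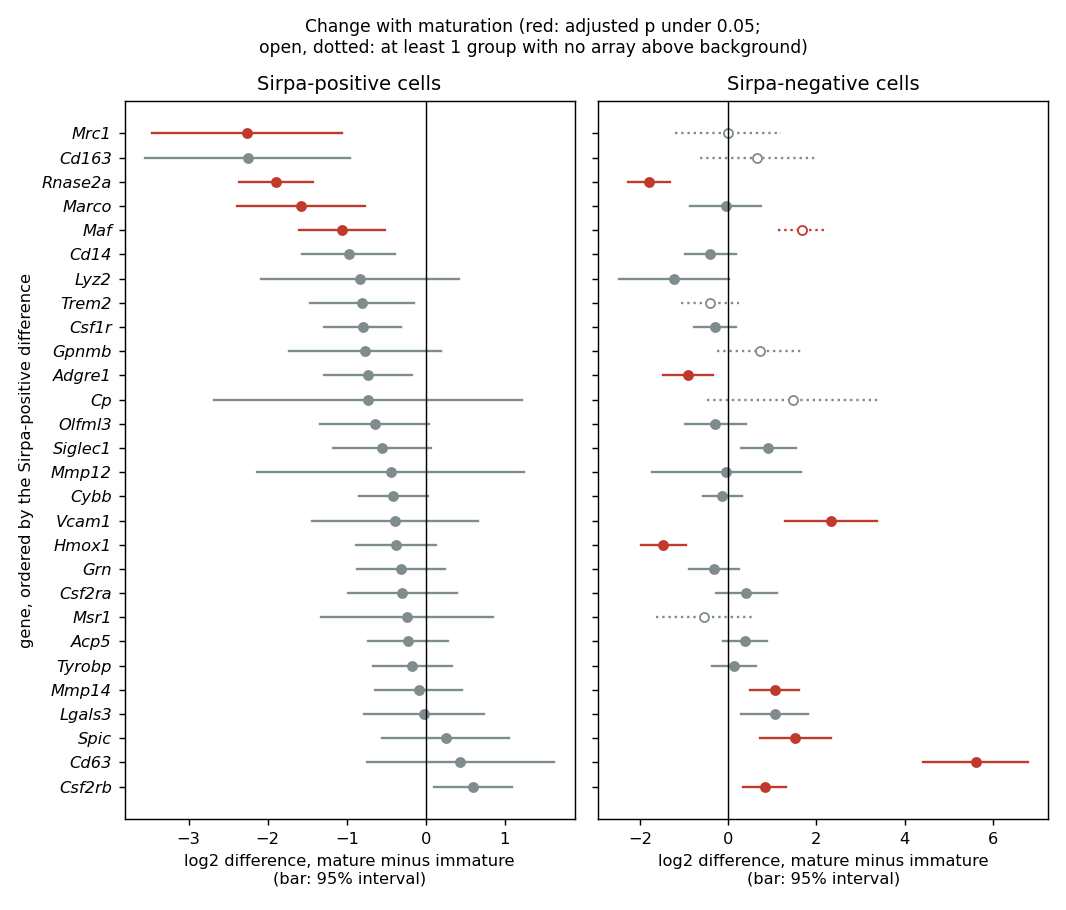
Log2 difference between mature and immature cells for the 28 genes, with 95% intervals, in Sirpa-positive cells (left) and Sirpa-negative cells (right), ordered by the Sirpa-positive difference. Genes in red passed the threshold, and open points with dotted bars have a group with no array above background. On the left 4 genes are red and below 0, and on the right 6 are red and above 0.

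In Sirpa-negative cells 6 of the 28 genes rose with maturation and 3 fell, while 16.5% of all genes tested passed, 9.22% higher and 7.24% lower. The median difference was 0.06. On the immature arrays 7 genes were not well above background on either array, and on the mature arrays 5 of these. The arrays did not overlap for 21 genes (75%, beside 57% of all genes).

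Cd63 rose most among them. Its window, shown because this was the largest change with maturation among the 28 genes, lies at chr10:128909095-128909344 (plus strand), with capitals marking GAGGAA or TTCCTC.
Cd63: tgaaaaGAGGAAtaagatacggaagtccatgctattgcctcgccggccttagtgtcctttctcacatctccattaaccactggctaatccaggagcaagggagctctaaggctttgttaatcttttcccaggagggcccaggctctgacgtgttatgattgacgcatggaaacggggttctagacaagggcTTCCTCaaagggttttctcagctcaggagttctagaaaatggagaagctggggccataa
Its level was 0.88 and -0.70 on the immature and 6.08 and 5.33 on the mature Sirpa-negative arrays, a difference of 5.61 ± 0.50 (adjusted p = 0.00095), a 49.0-fold rise. The slide rows gave 6.78 and 4.45, and the difference was 4.83 without immature replicate 7 and 6.40 without immature replicate 4. In Sirpa-positive cells it was already at 5.73 and 5.32 before maturation, and at 6.04 and 5.88 after it, so the mature groups overlapped.

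Vcam1, an adhesion molecule that binds integrins of lymphocytes, was at 0.51 and -0.30 in immature and 2.86 and 2.01 in mature Sirpa-negative cells, a difference of 2.33 ± 0.45 (adjusted p = 0.014). Without Sirpa-negative immature replicate 7 its adjusted p was 0.0649, and without Sirpa-negative mature replicate 2 it was 0.0822. Spic was at -1.96 and -2.06 and then at -0.05 and -0.92, a difference of 1.52 ± 0.34 (adjusted p = 0.025). Mmp14 was at 1.03 and 0.84 and then at 2.07 and 1.91, a difference of 1.06 ± 0.23 (adjusted p = 0.024). Csf2rb was at 4.82 and 4.85 and then at 5.64 and 5.69, a difference of 0.83 ± 0.21 (adjusted p = 0.036). Mmp14 and Csf2rb missed the threshold when any of the 4 Sirpa-negative arrays was left out (0.0577 to 0.111, and 0.102 to 0.136), Csf2rb also without either Sirpa-positive immature array (0.0695). With the slide row as a block, Csf2rb and Adgre1 had adjusted p = 0.0728 and 0.0747. Spic missed it without either immature Sirpa-negative array or mature replicate 2 (0.0856 to 0.113). Maf was not well above background on either immature array and on 1 of the 2 mature ones, so its rise was at least 1.05-fold, with measured means of -5.50 and -3.81 (adjusted p = 0.0042). This call was lost with the authors' values (a difference of 0.41, adjusted p = 0.19) and with normexp background correction (0.28, adjusted p = 0.30).

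The genes that fell in Sirpa-negative cells were Rnase2a, Hmox1 and Adgre1. Rnase2a went from -0.06 and -0.14 to -2.05 and -1.74, a difference of -1.80 ± 0.20 (adjusted p = 0.0019). This gene alone of the 28 fell in both subsets, and the difference between its changes was -0.10 ± 0.28. Hmox1, which breaks down haem, went from 0.09 and 0.22 to -1.46 and -1.16, a difference of -1.47 ± 0.21 (adjusted p = 0.0052), and another probe of the gene gave -0.59 (adjusted p = 0.14). Adgre1 went from -0.23 and 0.05 to -1.006 and -1.003, a difference of -0.91 ± 0.24 (adjusted p = 0.041). Its other probe gave 0.42 (adjusted p = 0.60), and its call was lost without any of the 4 Sirpa-negative arrays or either Sirpa-positive mature array (adjusted p from 0.0600 to 0.173). Cp and Lgals3, which did not pass on all arrays, passed without mature replicate 8 (0.0170 and 0.0211), and Siglec1 did so without immature replicate 4 (0.0423).

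Whether maturation acted differently in the subsets was tested as the difference between the maturation effects. None (0) of the 28 genes passed in limma, as none (0) of all genes did, while 12 of the 28 and 1948 of all 24152 (8.07%) had an unadjusted p under 0.05. Of those 12 differences, 11 were negative and that of Hmox1 was positive. Cd63 had -5.18 ± 0.71 (adjusted p = 0.084) and Vcam1 had -2.72 ± 0.63 (0.21). The value of Maf, -2.74 ± 0.33 (0.069), rests on Sirpa-negative arrays of which 3 of 4 were not well above background, and it lay between -2.94 and -0.96 in the alternatives. With trended and robust variances Maf, Cd63 and Vcam1 had adjusted p = 0.0417, 0.0036 and 0.0407, and with the authors' values Cd63 and Vcam1 had 0.0087 and 0.0334.

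The subsets differed in most of these genes. Among immature cells 25 of the 28 genes passed as higher in the Sirpa-positive subset and none (0) as lower. The counts were the same at an unadjusted p under 0.05 (limma). The share was 89.3%, beside 11.6% of all genes that passed, 7.23% higher and 4.38% lower. Because the genes were chosen with earlier results of these data known, this contrast with all genes is not independent support. All 28 had groups that did not overlap (100%, beside 59.2% of all genes). Among the 25 are Cd163, Cp, Gpnmb, Maf, Mrc1, Msr1, Olfml3 and Trem2. Their brightest probes were tested only because of their Sirpa-positive arrays. That filter favours the higher direction, so these genes do not add support to the counts. The median log2 difference was 4.42, or 3.40 with the genes at background set to their bound, against -0.11 over all genes. For 14 of the genes the fold or its lower bound was over 10. Csf2ra, Csf2rb and Grn did not pass, with differences of 0.66, 0.17 and 0.31. The 25 genes were higher in both slide rows.

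**Figure D4:**
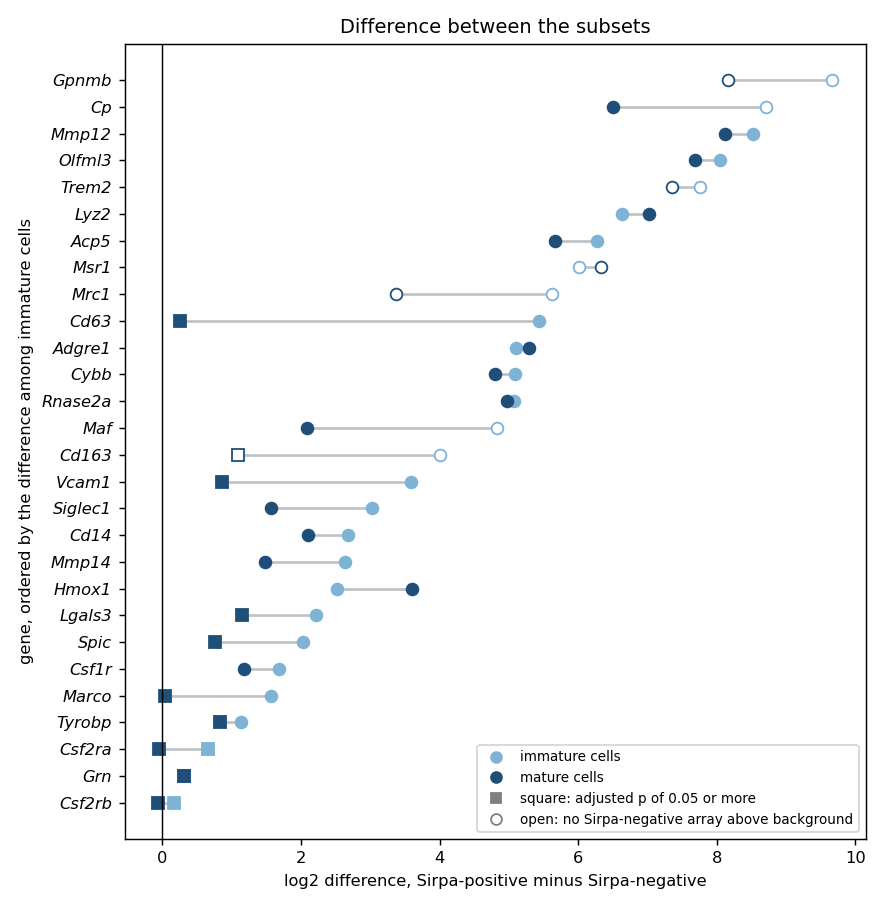
Log2 difference between Sirpa-positive and Sirpa-negative cells for the 28 genes, among immature cells (light) and mature cells (dark), ordered by the immature difference. Squares did not pass the threshold, and open symbols have no Sirpa-negative array above background. The dark and light symbols of Trem2 and Rnase2a lie close together, and those of Cd63 lie far apart.

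Where a gene was not above background on any array of the Sirpa-negative group, its fold is a lower bound. The mean of the brighter group was divided by a floor, the mean over the dimmer arrays of the gene's signal or of the dimmest probe called well above background there, whichever was higher. Gpnmb, Trem2 and Olfml3 are shown by their windows because their brightest probes lay at or near background in Sirpa-negative cells. Another Olfml3 probe was above background there. The windows lie at chr6:49036268-49036517 (plus strand), chr17:48346151-48346400 (plus strand) and chr3:103738002-103738251 (minus strand).
Gpnmb: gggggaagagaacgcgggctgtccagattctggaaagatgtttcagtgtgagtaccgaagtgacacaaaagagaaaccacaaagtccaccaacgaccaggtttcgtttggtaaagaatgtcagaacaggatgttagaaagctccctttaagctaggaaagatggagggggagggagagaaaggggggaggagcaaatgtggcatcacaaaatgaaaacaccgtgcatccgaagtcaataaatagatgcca
Trem2: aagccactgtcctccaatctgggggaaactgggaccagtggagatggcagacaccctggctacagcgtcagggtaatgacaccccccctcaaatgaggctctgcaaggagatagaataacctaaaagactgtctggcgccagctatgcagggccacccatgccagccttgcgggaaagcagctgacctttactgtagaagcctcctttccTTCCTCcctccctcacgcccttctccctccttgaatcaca
Olfml3: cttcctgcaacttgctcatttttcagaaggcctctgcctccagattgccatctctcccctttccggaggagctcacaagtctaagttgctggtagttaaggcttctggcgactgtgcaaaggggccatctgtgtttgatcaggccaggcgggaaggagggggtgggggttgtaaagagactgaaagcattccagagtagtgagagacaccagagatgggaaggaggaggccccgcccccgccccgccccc
The Trem2 window held 1 TTCCTC match (capitals), and neither motif was in the Gpnmb or Olfml3 window.

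Gpnmb was at 3.79 and 3.38 in immature Sirpa-positive cells and not well above background in immature Sirpa-negative cells (measured values -5.45 and -6.71), at least 176-fold higher (adjusted p = 3.4e-05). Among mature cells it was at least 102-fold higher. Trem2 was at least 77.7-fold higher among immature and at least 43.6-fold higher among mature cells, with Sirpa-negative values of -5.22, -5.49, -6.11 and -5.44. Cp, a ferroxidase of iron export, was at 3.45 and 2.82 in immature Sirpa-positive cells and at least 129-fold higher than in Sirpa-negative cells. Msr1 was at least 40.3-fold, Mrc1 at least 12.9-fold, Maf at least 9.28-fold and Cd163 at least 4.14-fold higher among immature cells.

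Other genes were above background on at least 1 array of each immature group. Mmp12 was at 5.49 and 5.61 in immature Sirpa-positive and -2.81 and -3.13 in immature Sirpa-negative cells, 368-fold higher (adjusted p = 0.00042). Olfml3, a secreted matrix protein, was at 5.02 and 4.56 against -3.29 and -3.24, 266-fold higher by its brightest probe. Sirpa-negative replicate 4 was not well above background there, so this fold rests partly on a background value. The other Olfml3 probe was well above background on all 8 arrays and gave a smaller log2 difference, 5.92 against 8.05. Lyz2 was 99.4-fold higher and Acp5 77.0-fold. The log2 difference of Lyz2 was 6.63, or 5.96 and 7.31 without Sirpa-negative immature replicate 7 or 4, and that of Cd63 was 5.43, or 4.65 and 6.22. Adgre1, Cybb and Rnase2a were 34.5-fold, 33.9-fold and 33.8-fold higher, each above background on all 8 arrays. Smaller differences belonged to Tyrobp, at 2.19-fold, Marco, at 2.96-fold, and Csf1r, at 3.21-fold. Without single arrays of the immature groups, Tyrobp had adjusted p of 0.0643 to 0.105. Marco missed the threshold without either Sirpa-negative array or Sirpa-positive replicate 3 (0.0935 to 0.190), and Spic without Sirpa-positive replicate 3 (0.0750).

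Probes of 1 gene did not always give the same size of difference. Csf1r's brightest probe gave 1.68 among immature cells and its other probes 4.58 and 4.35. Siglec1's brightest probe gave 3.03 and the other 9.65, and for Hmox1 the values were 2.52 and 1.11. All probes of these genes gave the same direction. Unless stated, values in this report are those of the brightest probe. Among mature cells the mean of a gene's probes gave 5.26 for Siglec1 and 3.56 for Csf1r, against 1.56 and 1.18 for the brightest probe. With that mean both passed (limma adjusted p = 0.00027 and 0.00018). For Hmox1 the mean of the probes gave a smaller difference among mature cells, 2.50 against 3.61. Sizes also depended on the source of the values. With the authors' values the immature subset difference was 6.64 for Gpnmb, 5.08 for Trem2 and 2.58 for Mrc1, against 9.66, 7.75 and 5.62 here.

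Among mature cells 18 of the 28 genes were still higher in Sirpa-positive cells and none (0) lower (limma). The share was 64.3%, beside 5.48% of all genes that passed, 3.37% higher and 2.1% lower. At an unadjusted p under 0.05 in limma, 20 were higher and none (0) lower, beside 16.7% of all genes in either direction. For 23 of the 28 the groups did not overlap (82.1%, beside 40.8%). All 18 had also passed among immature cells. Among the 18 are Cp, Gpnmb, Maf, Mrc1, Msr1, Olfml3 and Trem2, whose brightest probes were tested only because of their Sirpa-positive arrays. The limit from the choice of the genes applies here too. For 12 of the 18 genes the fold or its lower bound, by the brightest probe, was over 10. They included Lyz2 at 130-fold, Acp5 at 50.6-fold, Adgre1 at 39.1-fold, Rnase2a at 31.5-fold and Cybb at 27.9-fold. Mmp12, Olfml3 and Cp were not well above background on Sirpa-negative mature replicate 8, at -4.30, -3.80 and -5.52, and were at -1.73, -3.30 and -2.68 on the other array. Their log2 differences, which rest partly on those background values, were 8.12, 7.69 and 6.51. The Olfml3 probe above background on all 8 arrays gave 5.97. Without replicate 8 the difference was 6.84 for Mmp12 and 5.09 for Cp, and without Sirpa-negative mature replicate 2 it was 9.41 and 7.93. By its brightest probe, Hmox1 differed by 12.2-fold among mature and 5.72-fold among immature cells, and the mean of its probes gave smaller differences. Mrc1 was at least 2.65-fold higher in mature Sirpa-positive cells. Maf was at -3.75 on the Sirpa-negative array above background and at -3.88 on the one that was not, a difference between the mature subsets of 2.09 ± 0.23, which was 1.07 with the authors' values and 0.73 with normexp background correction. Leaving out 1 array of the mature groups ended some calls made by the brightest probe. Siglec1 missed the threshold without any of the 4 (adjusted p from 0.0528 to 0.0972), and Csf1r without either Sirpa-negative array or Sirpa-positive replicate 6 (0.0700 to 0.104). Mmp14 missed it without Sirpa-negative replicate 8 or Sirpa-positive replicate 1 (0.0760 and 0.0621), and Mrc1 without Sirpa-negative replicate 2 or Sirpa-positive replicate 1 (0.0673 and 0.0592).

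Cd163, Cd63, Lgals3, Marco, Spic, Tyrobp and Vcam1 passed among immature but not among mature cells. Their changes lay in different groups. For Cd63 the level changed by 0.44 in Sirpa-positive and 5.61 in Sirpa-negative cells, which left a difference between mature subsets of 0.26 ± 0.50. For Marco it changed by -1.58 in Sirpa-positive and -0.05 in Sirpa-negative cells, which left 0.04 ± 0.34. For Vcam1 and Spic the changes were -0.39 and 0.25 in Sirpa-positive cells and 2.33 and 1.52 in Sirpa-negative cells, which left 0.86 and 0.76. Lgals3, which binds galactosides, went from 3.76 and 3.52 to 5.15 and 4.23 in Sirpa-negative cells, which left 1.15 ± 0.32 (adjusted p = 0.11, or 0.0349 without Sirpa-negative mature replicate 2). Tyrobp differed by 1.13 among immature and 0.83 ± 0.21 among mature cells (adjusted p = 0.076). Cd163 differed by 1.09 ± 0.55 among mature cells, with no Sirpa-negative array above background.

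Related genes were counted on lists chosen beside the 28, also with earlier results of these data known. Of all genes tested, 4.35% rose and 2.53% fell in Sirpa-positive maturation, and 9.22% and 7.24% in Sirpa-negative maturation. Among immature cells 7.23% were higher and 4.38% lower in the Sirpa-positive subset, and among mature cells 3.37% and 2.1%. At an unadjusted p under 0.05 in limma, 20.2% passed in Sirpa-positive maturation. These shares apply to the counts in the following paragraphs too. Of 22 other tested genes of resident macrophages, 17 were higher and 1 lower in immature Sirpa-positive than in Sirpa-negative cells, and 13 and 1 among mature cells. Some of the 22 were tested only because of their Sirpa-positive arrays. That filter favours the higher direction, so those genes do not add support to these counts. C1qb, a complement subunit, differed by 8.63 ± 0.22 and 8.06 ± 0.22, and Cd36, a fatty acid receptor, by -4.54 ± 0.30 and -3.24 ± 0.30. With maturation in Sirpa-positive cells none (0) of the 22 rose and Slc48a1, a haem transporter, fell by 1.03 on the log2 scale, while at an unadjusted p under 0.05 in limma 0 were higher and 5 lower. In Sirpa-negative cells 3 rose and 2 fell, led by Axl, a receptor for dying cells (4.90 ± 0.29), and Cx3cr1, the fractalkine receptor, which fell at least 2.96-fold. Of the 24 matched genes on the list, 22 were well above background on both immature and 20 on both mature Sirpa-positive arrays. Lyve1 and Vsig4, which mark some resident macrophages, were above background on no array (0 of 8).

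Of 23 blood monocyte genes, 5 fell with maturation in Sirpa-positive cells and none (0) rose, with a median of -0.78. Of all genes tested, 2.53% fell and 4.35% rose. At an unadjusted p under 0.05 in limma, 11 were lower and 1 higher. Klf4, a transcription factor of monocytes, fell by 1.93 and Ccr2, the receptor that draws monocytes out of the marrow, by 1.32 on the log2 scale. In Sirpa-negative cells 3 rose and 8 fell. Between immature subsets 14 of the 23 were higher in Sirpa-positive cells and 3 lower. Among 15 further genes of lipid-associated macrophages, Fabp4 and Fabp5, which carry fatty acids, rose by 3.06 ± 0.19 and 1.77 ± 0.31 in Sirpa-positive cells, while Cd9 fell by 0.96. The same counts in Sirpa-negative cells were 5 risen and 2 fallen, and Apoe, a lipid carrier, differed between immature subsets by 7.87 ± 0.33.

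Of 23 other lysosomal genes none (0) passed in either direction with maturation in Sirpa-positive cells in limma (0 higher and 3 lower at an unadjusted p under 0.05), and 4 rose and 1 fell in Sirpa-negative cells. The leading rises there were Lgmn, a lysosomal protease, by 3.29 ± 0.26, and Lamp1, a lysosomal membrane protein, by 2.99 ± 0.30. In immature cells 12 of the 23 were higher and 1 lower in the Sirpa-positive subset. Of 11 other ligands, receptors and signalling genes of the CSF family, 1 rose in Sirpa-positive cells with maturation, Stat5a, by 1.19 ± 0.25, and 4 rose and 1 fell in Sirpa-negative cells. Csf1, the ligand of Csf1r, was at least 14.2-fold higher in mature than immature Sirpa-negative cells. Of 11 genes of the DAP12 and Fc gamma chain group, 5 were higher in immature and 3 in mature Sirpa-positive than Sirpa-negative cells. Of 5 other NADPH oxidase subunits, 1 was higher and 1 lower in immature Sirpa-positive cells, while Cybb differed by 5.08 ± 0.19.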

How the data were processed

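RNA was measured on 8 one-colour (Cy3) Agilent arrays. The scanner files hold spot intensities, and per the file headers they come from Feature Extraction 10.7.3.1 with background subtraction, while the submitters' processing notes name version 10.5; this was not resolved. The authors' deposited table holds log2 values on the quantile-normalized scale seen in the values (medians 5.986 to 6.007), with scale inferred, no gene centring seen and settings not given in the sources used here. Outlier spots were set missing, spots of a probe were averaged, and log2 processed signal minus each array's 75th percentile was used. Kept were 33697 of 55681 probes, where some group had both its arrays well above background; 26582 probes got a symbol through RefSeq (GRCm38.p6) and 29099 did not. The brightest probe stood for a gene. The limma 3.58.1 model (R 4.3.3) had 4 group means, moderated variances (4 residual and 3.26 prior degrees of freedom), two-sided tests and Benjamini-Hochberg adjustment over 24152 genes. All p-values in the report are from this model. It was tested on simulated data for Sirpa-positive maturation, with 50 genes changed at each size. It recovered 0% of log2 changes of 1, 44% of 2 and 80% of 3. A gene not called can therefore have changed. All members are named; of other lists, at most 2 risen and 2 fallen genes with the smallest p, beside Sirpa and Ccr7; Lyve1 and Vsig4 were named after their values were seen. The members and lists were chosen with earlier results of these data known. Alternatives changed background correction, scaling, source of values, filters, probe choice, blocks, variances and arrays. The normexp alternative used median signals, as the scanner files hold no mean signal column, and was chosen after seeing the files. The number of arrays limits the precision.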

Additional observations from a re-analysis of the deposited data

How the results depend on the processing

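No paired analysis was possible because no replicate number is shared between groups, and blocks were fitted in its place. Each slide row, and each of the sets of title numbers 1 to 4 and 5 to 8, holds 1 array of every group; that those number sets mark a shared batch is a guess. With the title number set as a block, the counts were 6 and 11 for maturation in Sirpa-positive and Sirpa-negative cells, 25 and 20 for the subsets among immature and mature cells, and 0 for the difference between the maturation effects. That block added Cd163 (adjusted p = 0.0113) and Cd14 (0.0464) in Sirpa-positive maturation, Lyz2 (0.0184) and Lgals3 (0.0290) in Sirpa-negative maturation, and Vcam1 (0.0418) and Lgals3 (0.0460) between the mature subsets. In Sirpa-positive cells, the count of genes that changed with maturation (4) was 11 with normexp and quantile normalization, 8 with the authors' values, 1 with dim probes kept, 1 with the slide row blocked, and 1 to 3 when 1 array was left out; all of these calls were falls. In Sirpa-negative cells the count (9) was 4 with dim probes kept, 5 with only the arrays compared, and 4 to 8 with 1 array left out. The subset count among mature cells (18) was 11 of 20 genes tested when probes had to be well above background on all 8 arrays, and 15 to 18 with 1 array left out; among immature cells (25) it was 22 to 25. The difference between the maturation effects (0) gave 2 genes with normexp, 2 with the authors' values, 1 with the filter on all 8 arrays, 3 with trended and robust variances, and 0 with any array left out. The cause of these shifts was not tested, except that the filter on all 8 arrays left 20 genes. Only the arrays compared was not run for that difference, which uses all arrays. Every gene called kept its direction in all alternatives run (74, 170, 467 and 335 values over the maturation and subset comparisons), of which 44, 130, 457 and 318 passed. No result reversed. Keeping dim probes moved the median of all genes by over 0.1, to 0.15 in Sirpa-positive maturation.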
